A study of Arabidopsis thaliana with 16 samples.

Results

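Phosphoenolpyruvate carboxylase (PEPC) and the protein kinase that activates it were followed in roots and shoots of phosphate-starved Arabidopsis thaliana seedlings. The family was taken as 6 loci fixed by name: the kinases PPCK1 (AT1G08650) and PPCK2 (AT3G04530), the plant-type carboxylases PPC1 (AT1G53310), PPC2 (AT2G42600) and PPC3 (AT3G14940), and the bacterial-type carboxylase PPC4 (AT1G68750). These are 6 of 27206 protein-coding loci with an expression value. The level of a gene is the sum of FPKM (fragments scaled to transcript length and to the mapped fragments of the library) over its transcripts, a scale on which genes can be set side by side. Wild-type Col-0 seedlings, 10 days old, were grown on agar with half-strength MS salts and sucrose, either with Pi (P+, 1.25 mM KH2PO4) or without (P-, where 0.65 mM K2SO4 took the place of KH2PO4). Absence of phosphate and the added sulfate therefore cannot be told apart in this design. Roots and shoots were separated, and their total RNA was passed over oligo(dT) beads: what bound is called poly(A)+ here, and what did not bind, poly(A)-, was then depleted of ribosomal RNA. With 2 biological replicates for each of 8 groups, 16 libraries were read. Whole organs were sequenced, so more cells of a type and more RNA per cell cannot be told apart.

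PEPC adds bicarbonate to phosphoenolpyruvate (PEP) and yields oxaloacetate and inorganic phosphate. Together with malate dehydrogenase it feeds malate and citrate, which roots can release to free phosphate from soil minerals, and it offers a way round pyruvate kinase, which needs ADP. The plant-type enzyme is inhibited by malate, and PPCK, one of the smallest known protein kinases, relieves that inhibition by phosphorylating a serine near the N-terminus. Bacterial-type PEPC lacks that serine.

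The serine codon is shown because it is the site on which the kinase and the carboxylases meet. In the reference genome (RefSeq, TAIR10.1) a search of the translated reading frames for serine, then I or V, D, any 2 residues, L and R, found the site at residue 11 of PPC1, PPC2 and PPC3, and found no match in PPC4. The coding strand around it reads as follows, 5′ to 3′, with the serine codon in capitals.
PPC1, chr1:19888020-19888052, minus strand: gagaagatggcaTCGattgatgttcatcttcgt
PPC2, chr2:17738629-17738661, minus strand: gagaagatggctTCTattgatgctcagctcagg
PPC3, chr3:5025602-5025634, plus strand: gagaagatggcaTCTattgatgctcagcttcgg
The translated proteins have 967, 963 and 968 residues, against 1032 for PPC4. PPC1 and PPC3 were the closest pair, with 91.8% of aligned residues and 85.6% of aligned coding bases the same. PPC2 shared 85.5% of residues with PPC1 and 85.0% with PPC3, and PPC4 shared 45.6 to 46.5% with the 3 plant-type enzymes. The longest stretch of identical transcript sequence was 41 bases, between PPC1 and PPC2, and 39 bases between PPC1 and PPC3. Reads inside such stretches cannot be assigned by sequence alone. PPCK1 and PPCK2, of 284 and 278 residues, shared 65.0% of aligned residues and at most 23 identical bases in a row.

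PHR1, the MYB factor at the centre of the Pi starvation response, binds an imperfect palindrome called P1BS, written GNATATNC. It was searched on both strands, which for this palindrome give the same matches, upstream of the annotated gene start. Within 500 bases a match was present for PPCK1, PPC2 and PPC3, 3 of the 6 genes, and for 10.7% of 27443 protein-coding genes. Within 250 bases PPCK1 and PPC3 had one, as did 5.46% of genes. PPCK2 had its nearest match 865 bases upstream, and PPC1 and PPC4 had none within 1000 bases, a window in which 20.3% of genes had a match. The match nearest to the gene start is shown for the 3 genes that have one within 500 bases, in capitals and read on the strand of the gene.
PPCK1, 27 bases upstream, chr1:2752077-2752123, plus strand: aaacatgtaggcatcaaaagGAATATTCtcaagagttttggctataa
PPC3, 186 bases upstream, chr3:5024978-5025025, plus strand: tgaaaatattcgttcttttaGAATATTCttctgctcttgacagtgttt
PPC2, 433 bases upstream, chr2:17739573-17739620, minus strand: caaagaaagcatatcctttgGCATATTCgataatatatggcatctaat
PPC2 has a second match 445 bases upstream, which lies inside the stretch shown. The match in PPCK1 and that in PPC3 have the same letters. A match is a description of the sequence only, and binding was not measured here.

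PPCK1 lies on chromosome 1 (2752124-2753809, plus strand) and PPCK2 on chromosome 3 (1221422-1222744, plus strand), each with 2 exons in its first transcript. PPC1 (chromosome 1, 19883935-19888413, minus), PPC2 (chromosome 2, 17734302-17739167, minus) and PPC3 (chromosome 3, 5025184-5029886, plus) have 11 exons in their first transcripts, and PPC4 (chromosome 1, 25822716-25828147, minus) has 20. The annotation places AT1G08645 on the opposite strand over 472 bases of PPCK1, and no gene over the other 5. That neighbour has no row in the expression table. The libraries were made with a strand-specific kit. Their labels nevertheless name 2 read settings: 8 libraries (root replicate 1 and shoot replicate 2) are marked unstranded and 8 first-strand. Antisense reads at PPCK1 could therefore be counted differently between the settings. Of the 1212 lncRNA transcripts that the authors assembled, 1201 have coordinates within the length of the 5 nuclear chromosomes of this reference. None of the 1201 lies within 2000 bases of any of the 6 genes.

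FPKM do not carry sequencing depth, and the read totals of the libraries, which the study tabulates, were not used here, so no counting error is given for low levels. Organ identity was checked on marker lists. The 16 root markers summed to 7975 to 12425 FPKM in root poly(A)+ libraries and to 469 to 832 in shoot libraries. The 14 shoot markers summed to 20004 to 28002 FPKM in shoots and to 220 to 834 in roots, where the stomatal genes SPCH, EPF2 and FAMA were listed at 0. Within roots the root markers summed to 10094 and 12425 FPKM with Pi and to 7975 and 8330 without, with 3 called lower (CASP5, TIP2;3 and MLP329) and 1 higher (BGLU21), and the shoot markers summed to 834 and 335 with Pi and to 228 and 220 without, with 1 called lower (PSAD1). Of all genes tested, 1.98% were called lower and 2.47% higher in P- roots. The part of the markers in the root results was not tested. Of 20 Pi starvation markers, 19 rose in P- roots (95%, against 2.47% of all genes) and 16 in P- shoots (80%, against 5.09%). Tests were made with limma on log2(FPKM + 1), with the 4 groups of a fraction fitted together and p-values adjusted by Benjamini-Hochberg over all genes with a mean of at least 1 FPKM. A gene was called at an adjusted p under 0.05, and differences are given with their standard error (SE). The added 1 makes differences of low genes smaller than their ratio of FPKM.

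With Pi, both kinases were higher in roots than in shoots in poly(A)+ RNA, and PPCK2 was near 0 in shoots. PPCK1 measured 95.8 and 117 FPKM in the 2 libraries of P+ roots and 5.99 and 4.47 FPKM in those of P+ shoots. PPCK2 measured 42.5 and 34.2 FPKM in P+ roots, and was listed at 0 and 0.126 FPKM in P+ shoots. The groups did not overlap for either kinase. The difference of roots from shoots was 4.11 for PPCK1 (log2, SE 0.30, adjusted p = 1.08e-05) and 5.21 for PPCK2 (SE 0.30, adjusted p = 4.02e-06).

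The carboxylases divided by organ. PPC1 measured 122 and 89.0 FPKM in P+ roots against 23.7 and 25.9 in P+ shoots, a log2 difference of 2.03 (SE 0.27, adjusted p = 0.000348). PPC3 measured 46.2 and 108 FPKM in P+ roots against 2.26 and 2.41 in P+ shoots, a log2 difference of 4.42 (SE 0.38, adjusted p = 2.64e-05). PPC2 went the other way, with 25.8 and 27.9 FPKM in P+ roots against 109 and 112 in P+ shoots, a log2 difference of -2.00 (SE 0.22, adjusted p = 9.27e-05). PPC4 was close to the lower end everywhere: 0.183 and 0 FPKM in P+ roots, 0.160 and 0.626 in P- roots, and 0 in all 4 shoot libraries. It stayed below the mean of 1 FPKM and was not tested. All 5 tested genes thus differed between P+ organs, where 47.3% of all genes tested were called in either direction, so that such a difference is common.

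Ordered by mean level, P+ roots held PPCK1 (106 FPKM), PPC1 (105), PPC3 (76.9), PPCK2 (38.3) and PPC2 (26.8). The libraries of PPCK1, PPC1 and PPC3 overlapped there, and those of the other neighbours did not. In P+ shoots the order was PPC2 (110.3 FPKM), PPC1 (24.8), PPCK1 (5.23), PPC3 (2.34) and PPCK2 (0.0630), with no overlap between neighbours. In P- roots it was PPCK1 (377 FPKM), PPC1 (300.1) and PPC3 (288), which overlapped, then PPC2 (68.2) and PPCK2 (55.1). In P- shoots PPCK1 led with 109 FPKM, ahead of PPC2 (87.7), PPC1 (69.2), PPC3 (17.8) and PPCK2 (14.8), and only the libraries of PPC3 and PPCK2 overlapped.

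**Figure D1:**
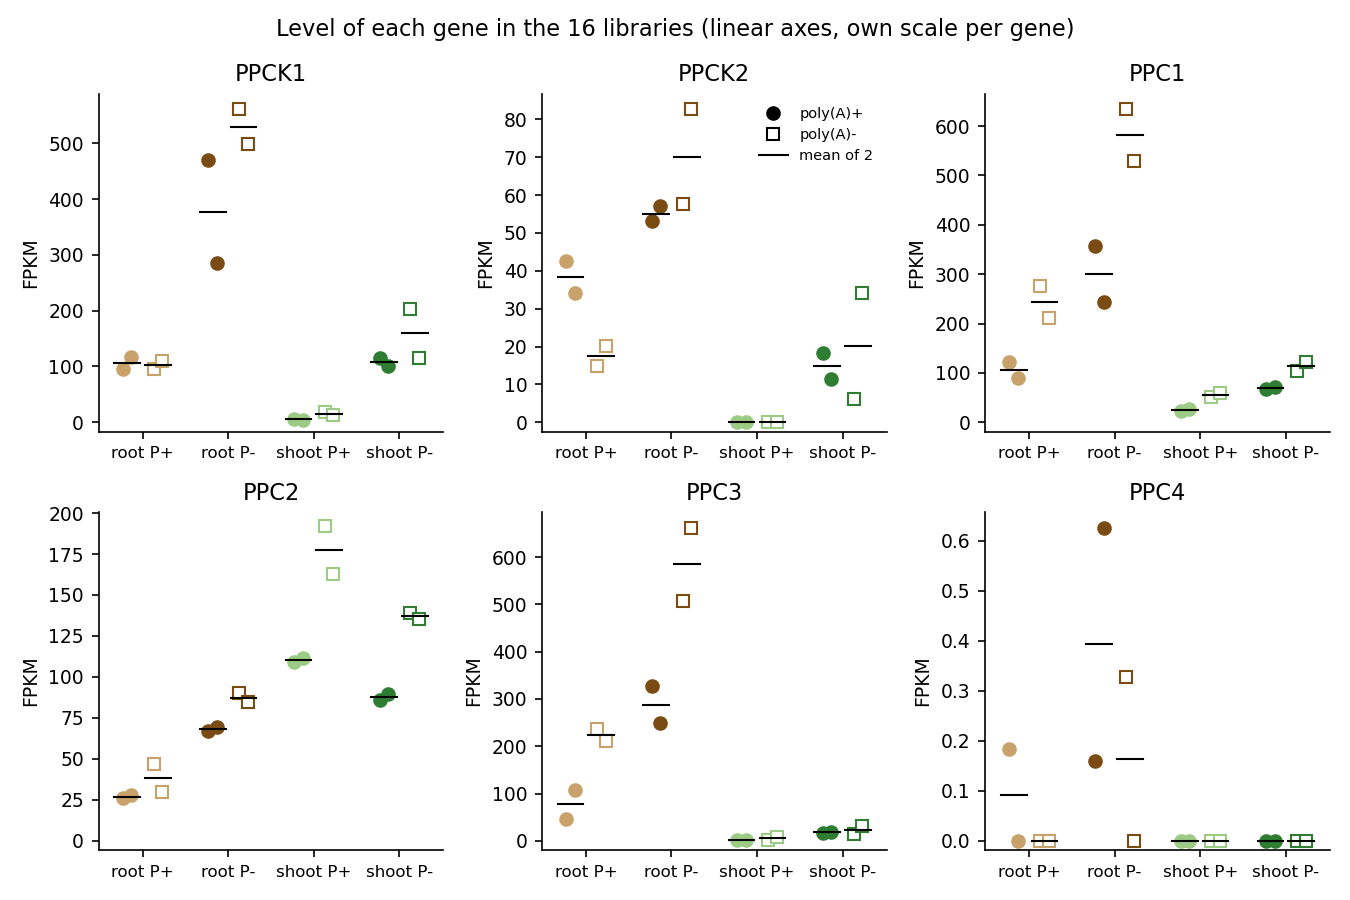
FPKM (vertical axis, linear, own scale for each gene) of the 6 genes in P+ and P- roots and shoots, with filled circles for the 2 poly(A)+ libraries, open squares for the 2 poly(A)- libraries and a line at their mean. Both PPCK1 libraries of P- shoots (116 and 101 FPKM in poly(A)+ RNA) sit far above those of P+ shoots (5.99 and 4.47 FPKM), while for PPC2 the P- shoots lie below the P+ shoots.

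Without Pi, the kinases rose in shoots. PPCK1 reached 116 and 101 FPKM in P- shoots, about the level of P+ roots, from 5.99 and 4.47 FPKM in P+ shoots. The log2 rise was 4.15 (SE 0.30, adjusted p = 0.00055). PPCK2 reached 18.2 and 11.4 FPKM from 0 and 0.126, a log2 rise of 3.86 (SE 0.30, adjusted p = 0.000768). Both calls held in each of the 19 alternatives run, among them leaving out any 1 library.

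In poly(A)+ RNA of roots PPCK1 was called and PPCK2 was not, and the kinases were not tested against each other. In poly(A)- roots neither was called, with log2 differences of 2.37 and 1.94. PPCK1 measured 470.03 and 285 FPKM in P- roots, both above the 95.8 and 117 FPKM of P+ roots, and rose by 1.78 (log2, SE 0.30, adjusted p = 0.015). PPCK2 measured 53.1 and 57.0 FPKM against 42.5 and 34.2, and its log2 difference of 0.52 (SE 0.30, 95% interval -0.17 to 1.21, adjusted p = 0.353) did not pass the threshold. In poly(A)+ RNA and on the log2 scale, the kinases responded less in roots than in shoots. The root response less the shoot response was -2.36 for PPCK1 (SE 0.42, adjusted p = 0.0252) and -3.34 for PPCK2 (SE 0.43, adjusted p = 0.00997). Both differences missed the threshold with 5 FPKM added in place of 1 (adjusted p = 0.0509 for PPCK1 and 0.0513 for PPCK2), and that of PPCK1 also with its most abundant transcript model in place of the sum (adjusted p = 0.0574). In poly(A)- RNA the same difference was -0.87 for PPCK1 (SE 0.49, adjusted p = 0.561) and -2.06 for PPCK2 (SE 1.02, adjusted p = 0.511). Neither was called. By FPKM, PPCK1 rose more in roots, from a mean of 106 to 377, than in shoots, from 5.23 to 109.

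PPC1 rose in both organs. In roots it measured 356 and 244 FPKM without Pi against 122 and 89.0 with Pi, a log2 rise of 1.49 (SE 0.27, adjusted p = 0.0208). In shoots it measured 67.7 and 70.7 FPKM against 23.7 and 25.9, a log2 rise of 1.45 (SE 0.27, adjusted p = 0.0179). The difference between the responses was 0.05 (SE 0.39, 95% interval -0.83 to 0.93, adjusted p = 0.958), an interval that leaves room for a difference in either direction.

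PPC3 rose in both organs. Its P- root libraries measured 327 and 248 FPKM against 46.2 and 108 in P+ roots, a rise of 2.00 (SE 0.38, adjusted p = 0.0243). Its P- shoot libraries measured 16.5 and 19.0 FPKM against 2.26 and 2.41, a rise of 2.49 (SE 0.38, adjusted p = 0.00761). Root markers rose in P- shoots too, and with their median share taken off, as described below, the shoot difference of PPC3 was 1.09 (adjusted p = 0.149) and no longer called. The P+ root libraries of PPC3 lay further apart from each other than those of any other tested member. The difference between its responses was -0.49 (SE 0.54, 95% interval -1.71 to 0.73, adjusted p = 0.637).

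PPC2, the main carboxylase transcript of P+ shoots, rose in roots and did not rise in shoots. In roots it measured 67.0 and 69.4 FPKM without Pi against 25.8 and 27.9 with Pi, a log2 rise of 1.31 (SE 0.22, adjusted p = 0.014). In shoots it measured 85.9 and 89.6 FPKM against 109 and 112. Both P- libraries lay below both P+ libraries, but the log2 difference of -0.33 (SE 0.22, 95% interval -0.82 to 0.16, adjusted p = 0.382) did not pass the threshold. The responses differed by 1.64 (SE 0.31, adjusted p = 0.0283). In poly(A)- RNA that difference was 1.565 (SE 0.40, adjusted p = 0.209) and was not called. After starvation the level of PPC2 in roots and shoots was no longer called different (log2 difference -0.36, SE 0.22, adjusted p = 0.211), whereas PPCK1, PPCK2, PPC1 and PPC3 stayed higher in roots by 1.75, 1.86, 2.07 and 3.93.

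Counted over the family, 4 of the 5 tested genes rose in P- roots (PPCK1, PPC1, PPC2, PPC3), where 2.47% of all 19743 tested genes were called higher, and 4 rose in P- shoots (PPCK1, PPCK2, PPC1, PPC3), where 5.09% were. The shoot count includes PPC3, whose call was lost with the root marker share taken off. None was called lower. The median log2 difference of the 5 genes was 1.49 in roots and 2.49 in shoots, against 0.07 and 0.14 over all genes. The response differed between organs for 3 of 5 (PPCK1, PPCK2, PPC2), against 3.56% of all genes in either direction, and 4 of 5 differed between P- roots and P- shoots, against 43.6%.

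These counts rest on few libraries. In roots no call was left without the P- library numbered 2 (adjusted p = 0.0768 to 0.165) or when roots were fitted alone, PPC2 and PPC3 were lost without the P- library numbered 3, and PPC1 and PPC3 without any 1 shoot library. In shoots PPC1 and PPC3 were lost without any 1 shoot library, and the 3 differences of response were all lost without P+ replicate 1, P+ replicate 2 or P- replicate 1 of the shoots. Without shoot P- replicate 2 or the P- root library numbered 3 only that of PPCK2 was left, and without the P- root library numbered 2 only that of PPCK1.

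The direction of each called response was the same within each read setting, where each group has 1 library. Both P- libraries lay above both P+ libraries in each called response. Any pairing of them therefore gives this direction, and it is no check on the read setting. In roots the log2 difference was 2.28 in the unstranded and 1.28 in the first-strand libraries for PPCK1, 1.54 and 1.44 for PPC1, 1.34 and 1.29 for PPC2, and 2.80 and 1.20 for PPC3. For PPCK2, not called in roots, it was 0.32 and 0.72. In shoots the same 2 settings gave 4.23 and 4.06 for PPCK1, 3.46 and 4.26 for PPCK2, 1.42 and 1.47 for PPC1, -0.31 and -0.34 for PPC2, and 2.55 and 2.42 for PPC3. The settings thus parted most for PPC3 and PPCK1 in roots.

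**Figure D2:**
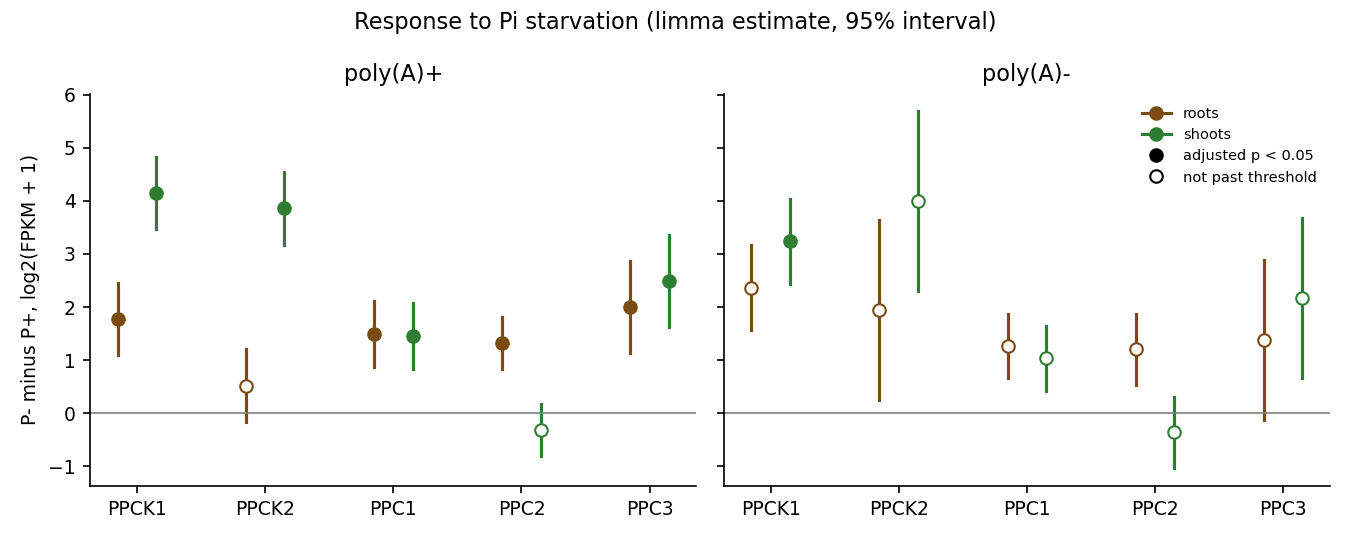
P- minus P+ on the log2(FPKM + 1) scale (vertical axis) for the 5 tested genes in roots (brown) and shoots (green), as limma estimates with 95% intervals from 2 libraries a group, with filled points for an adjusted p under 0.05. In poly(A)+ RNA the shoot estimates of PPCK1 (4.15) and PPCK2 (3.86) exceed the root estimates (1.78 and 0.52), those of PPC1 coincide (1.49 and 1.45), and PPC2 stands at 1.31 in roots and -0.33 in shoots.

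Summed over PPC1 to PPC4, PEPC transcripts measured 194 and 225 FPKM in P+ roots and 749.9 and 563 FPKM in P- roots. In shoots the sum moved less, from 135 and 139.8 FPKM with Pi to 170.1 and 179 without. What changed in shoots was the make-up: PPC2 supplied 79.8 and 80.8% of the sum in the P+ libraries and 50.0 and 50.5% in the P- libraries. PPC1 went from 17.6 and 18.5% to 39.4 and 39.8%, and PPC3 from 1.68 and 1.73% to 9.72 and 10.6%. Root markers rose in P- shoots too, and these shares are not corrected for them. With the median marker share taken off, as described below, P- shoots had means of 85 FPKM for PPC2, 57.2 for PPC1 and 6.21 for PPC3. In roots PPC2 made up 12.4 to 13.3% of the sum with Pi and 8.93 to 12.3% without, ranges that lie next to each other, and PPC1 and PPC3 made up the rest but for a trace of PPC4.

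In poly(A)+ RNA, kinase transcripts per carboxylase transcript overlapped between P+ and P- roots and were higher in P- than in P+ shoots. Per 100 FPKM of PEPC there were 71.3 and 67.2 FPKM of kinase in P+ roots and 69.8 and 60.8 in P- roots, ranges that overlap. In P+ shoots the ratio was 4.43 and 3.28, and in P- shoots 78.8 and 62.9, within or above the range of roots. The poly(A)- fraction differed in roots, where the ratio was 19.6 and 28.5 with Pi and 50.2 and 45.5 without, with no overlap. In poly(A)- shoots it was 7.71 and 5.39 with Pi and 80.8 and 52.0 without. PPCK1 held most of the kinase sum in every poly(A)+ group, from 69.3% in a P+ root library to 100.0% in a P+ shoot library. These sums and ratios are descriptions with no test.

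**Figure D3:**
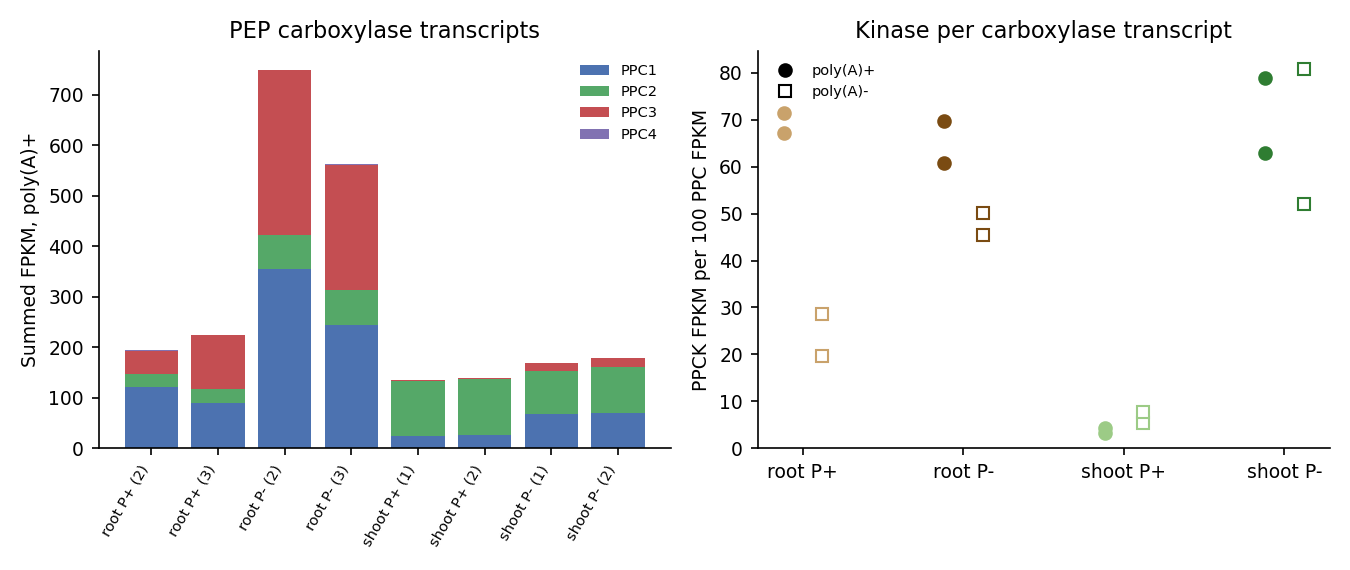
Left, stacked FPKM of PPC1 to PPC4 in each poly(A)+ library, with library numbers in brackets. Right, summed FPKM of PPCK1 and PPCK2 per 100 FPKM of PPC1 to PPC4, with filled circles for poly(A)+ and open squares for poly(A)- libraries. The bars of P- roots (749.9 and 563 FPKM) stand above all others, and the ratio of P+ shoots (4.43 and 3.28 in poly(A)+ RNA) lies far below that of the other groups.

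Transcript models added detail to PPC2. The models AT2G42600.1 and AT2G42600.2 encode the same 963 residues and differ outside the coding sequence. In P+ roots the first measured 3.85 and 11.2 FPKM and the second 21.9 and 16.6. In P- roots the first measured 46.2 and 42.8 FPKM, above both P+ libraries, while the second, at 20.8 and 26.6 FPKM, overlapped its P+ libraries. In poly(A)+ RNA the rise of PPC2 in roots was thus carried by AT2G42600.1. With the model that has the most FPKM over the 8 libraries in place of the sum, the log2 difference of PPC2 in roots was 0.29 (adjusted p = 0.576) and that between the responses 0.43 (adjusted p = 0.574). In shoots AT2G42600.1 measured 43.1 and 61.5 FPKM with Pi and 35.1 and 36.0 without, and AT2G42600.2 measured 66.1 and 50.0 with Pi and 50.8 and 53.6 without. The poly(A)- fraction differed in roots. There AT2G42600.2 rose from 7.37 and 14.9 FPKM with Pi to 30.8 and 51.0 without. AT2G42600.1 measured 39.5 and 15.0 FPKM with Pi and 59.4 and 33.6 without, ranges that overlap. How reads were divided between models that share their exons is an estimate of eXpress, and its error is not given.

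**Figure D4:**
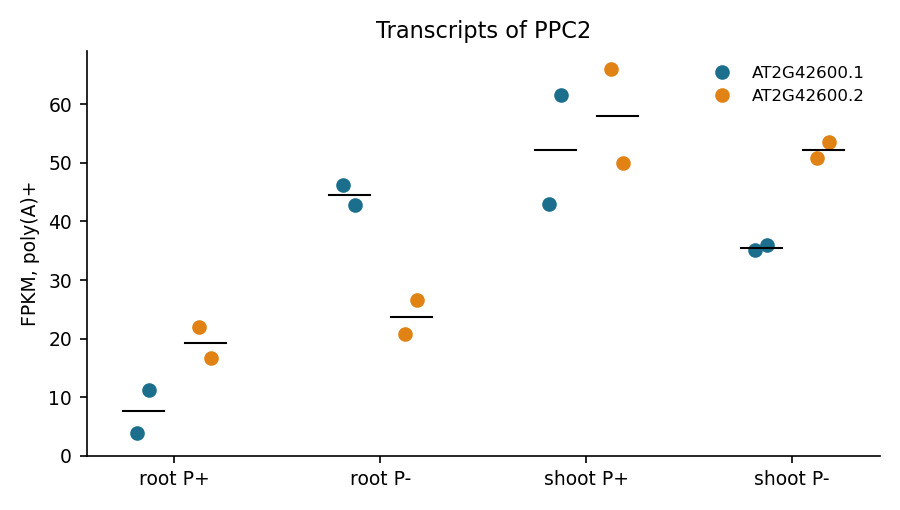
FPKM (vertical axis) of the transcript models AT2G42600.1 (blue) and AT2G42600.2 (orange) of PPC2 in the 2 poly(A)+ libraries of each group, with a line at the mean. AT2G42600.1 goes from 3.85 and 11.2 FPKM in P+ roots to 46.2 and 42.8 FPKM in P- roots, and AT2G42600.2 stays between 16.6 and 26.6 FPKM in roots.

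Of the other genes, PPCK1 and PPC1 have more than 1 model in the table. AT1G08650.1, which encodes 284 residues, held 74.1 to 100.0% of PPCK1 in the 8 poly(A)+ libraries, and AT1G08650.2, which ends in another exon and encodes 276 residues, held the rest. In PPC1 the model AT1G53310.2 held 80.5 to 84.7% in 3 of the 4 root libraries and 40.1% in the P+ root library numbered 2, where AT1G53310.1 held 50.8%. In shoots AT1G53310.2 held 38.6 to 70.3%, so the models of PPC1 were not divided alike between replicates. PPCK2, PPC3 and PPC4 have 1 model each in the table.

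In the poly(A)- fraction, RNA that did not bind oligo(dT), the same directions were seen with a wider spread. PPCK1 measured 94.7 and 109 FPKM in P+ roots and 561 and 498 in P- roots, groups that did not overlap, with a log2 difference of 2.37 (SE 0.34, adjusted p = 0.0538) that missed the threshold. In shoots it measured 18.8 and 12.5 FPKM with Pi and 203 and 116 without, and rose by 3.24 (SE 0.34, adjusted p = 0.0137). PPCK2 was listed at 0 in both P+ shoot libraries and at 6.25 and 34.1 FPKM in P- shoots, a log2 difference of 4.00 (SE 0.72, adjusted p = 0.0587). In roots it measured 14.9 and 20.1 FPKM with Pi against 57.7 and 82.7 without, a log2 difference of 1.94 (SE 0.72, adjusted p = 0.452).

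Among the carboxylases of the poly(A)- fraction, PPC1 measured 275 and 212 FPKM in P+ roots, 635 and 529 in P- roots, 50.5 and 59.6 in P+ shoots, and 105 and 122 in P- shoots. PPC3 measured 236 and 212, 508 and 663, 1.47 and 8.93, and 14.6 and 30.3 FPKM in the same 4 groups. PPC2 measured 46.8 and 29.9 FPKM in P+ roots against 90.1 and 84.5 in P- roots, and 192 and 163 in P+ shoots against 139 and 135 in P- shoots. For each of these 3 genes the direction was that of the poly(A)+ fraction. None passed the threshold, with adjusted p from 0.121 for PPC1 in shoots to 0.641 for PPC3 in roots. PPC4 was listed at 0 in 7 of 8 poly(A)- libraries and at 0.327 FPKM in the P- root library numbered 2.

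By count, none of the 5 tested genes was called in poly(A)- roots, where limma called 0.226% of 19455 genes higher, and 1, PPCK1, was called in poly(A)- shoots, where 0.745% were. With the thresholds of the study (unadjusted p under 0.05, fold of 2 or more), 4 of 5 were higher in roots and 4 in shoots, against 3.64% and 8.8% of all genes. The call of PPCK1 in shoots was lost without any 1 of the 4 root libraries, without either P+ shoot library or without P- shoot replicate 1 (adjusted p = 0.0536 to 0.0655).

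In roots PPC1 and PPC3 stood high in the poly(A)- fraction relative to the poly(A)+ fraction. Their ratio of poly(A)- to poly(A)+ FPKM was 2.31 and 2.91 in P+ roots and 1.94 and 2.03 in P- roots, where the median gene had 0.878 and 0.824. Those ratios lay at the 94th to 97th percentile of genes. In P+ shoots both had a ratio of 2.22 (92nd percentile), and in P- shoots PPC1 had 1.64 (83rd) and PPC3 1.27 (71st). The ratio of PPC3 in P+ shoots rests on low levels that overlap between fractions. These were 1.47 and 8.93 FPKM in poly(A)- and 2.26 and 2.41 FPKM in poly(A)+ libraries. The highest ratio of the family was that of PPCK1 in P+ shoots, 2.99 (97th percentile), which was 1.46 in P- shoots. PPC2 kept a ratio of 1.28 to 1.61 in the 4 groups. The ratio of PPCK2 went from 0.455 in P+ roots to 1.27 in P- roots, and that of PPCK1 from 0.961 to 1.40. FPKM are scaled within each library, so these ratios give a gene's place relative to other genes and not its amount in each fraction.

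Root markers moved with the shoot results. In poly(A)+ RNA 14 of the 16 root markers had a higher mean in P- than in P+ shoots. Of the 16, 8 were called higher (50%, against 5.09% of all genes). The summed level of the 16 went from 469 and 503 FPKM to 829 and 832. Of the Casparian strip genes CASP1 to CASP5, which mark the endodermis of roots, CASP4 and CASP5 were listed at 0 in a P+ shoot library and none was at 0 in P- shoots. Expressed as a share of the level in P- roots, the rise of the markers in shoots had a median of 4.02%, between -1.19 and 13.6% (CASP4). The rise of PPCK1 came to 27.4% of its P- root level, that of PPCK2 to 26.8%, that of PPC1 to 14.8% and that of PPC3 to 5.36%. On this scale the rises of both kinases and of PPC1 were larger than that of any marker, and that of PPC3 lay among the markers. The scale rests on P- root levels, which for CASP4 were 23.4 FPKM against 70.4 in P+ roots. The cause of the rises was not tested.

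With the median marker share of the root level taken off the P- shoot libraries, PPCK1, PPCK2 and PPC1 were still called, and PPC3 was not (log2 difference 1.09, adjusted p = 0.149). With the highest share taken off, an alternative chosen after the values were seen, PPCK1 and PPCK2 were still called, and PPC1 was at 0.18 (adjusted p = 0.742). The differences of response of PPCK1 and PPCK2 then missed the threshold (adjusted p = 0.089 and 0.0503). Values that the subtraction would have made negative were set to no expression. For PPC3 this befell both P- shoot libraries, so its value of -1.74 was set by that floor and by its P+ shoot level. Of the 14 shoot markers none passed the test in shoots, with log2 differences from -1.91 (LHCB2.1, SE 1.25) to 0.92 (FAMA, SE 0.29). These SE are too wide for the test to show a shift as small as the median share.

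**Figure D5:**
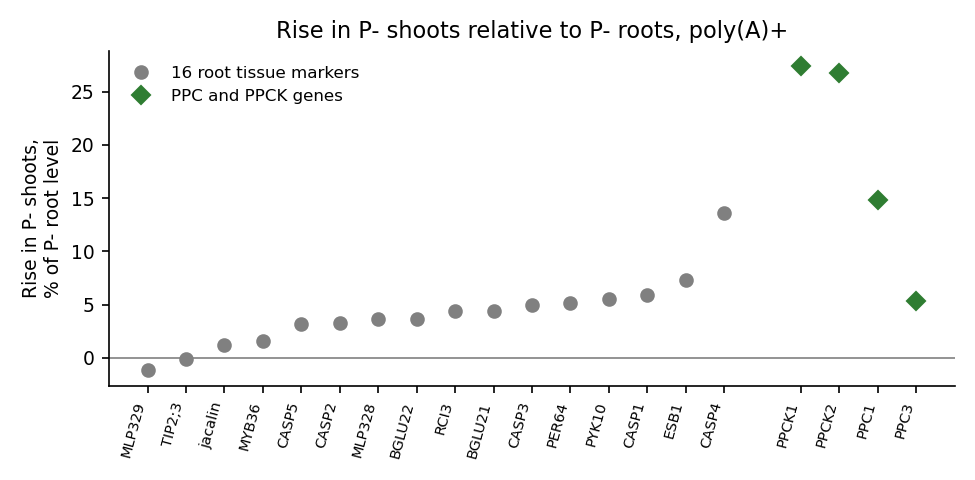
Difference between mean P- and mean P+ shoot FPKM as a percentage of the mean P- root FPKM (vertical axis), for the 16 root tissue markers (grey circles, in order of value) and for 4 of the genes (green diamonds), poly(A)+ libraries, 2 a group. PPCK1 (27.4%), PPCK2 (26.8%) and PPC1 (14.8%) lie above CASP4, the highest marker at 13.6%, and PPC3 (5.36%) lies among the markers.

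Beyond the family, the enzymes on each side of PEPC were read from fixed lists. Of 15 tested genes for PEP supply and use (enolases, pyruvate kinases, PEP carboxykinases and pyruvate phosphate dikinase), 1 rose in roots (6.67%, against 2.47% of all genes) and 3 in shoots (20.0%, against 5.09%), and none was called lower. The cytosolic pyruvate kinase gene AT5G63680, whose enzyme competes for PEP, rose from a mean of 44.9 to 153 FPKM in roots (log2 1.70, SE 0.32, adjusted p = 0.0251) and from 15.1 to 46.6 in shoots (log2 1.56, SE 0.32, adjusted p = 0.0252). In shoots AT5G56350, another cytosolic pyruvate kinase gene, rose by 1.31 (SE 0.31, adjusted p = 0.0398), and ENO2, the enolase that makes PEP, by 1.45 (SE 0.35, adjusted p = 0.041). The median log2 difference of the list was 0.56 in roots and 0.24 in shoots, against 0.07 and 0.14 over all genes.

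The glycolytic steps that phosphate starvation can bypass were read, with bypass enzymes, from 15 genes. These encode pyrophosphate- and ATP-dependent phosphofructokinases, glyceraldehyde-3-phosphate dehydrogenases and a phosphoglycerate kinase. Of the 15, 1 rose in roots (6.67%) and 2 in shoots (13.3%), beside the same shares of all genes, 2.47% and 5.09%. PFK7, an ATP-dependent phosphofructokinase, rose from 43.3 to 114 FPKM in roots (log2 1.40, SE 0.27, adjusted p = 0.0275) and from 9.21 to 22.3 in shoots (log2 1.20, SE 0.27, adjusted p = 0.0341). With the highest marker share taken off, its shoot difference was -0.40. PFK2, of the same family, rose in shoots from 4.54 to 14.1 FPKM (log2 1.43, SE 0.33, adjusted p = 0.0365), and measured 7.71 and 3.90 FPKM in P+ and P- roots. Its responses differed by -2.22 (SE 0.47, adjusted p = 0.043). The median log2 difference was 0.53 in roots and 0.42 in shoots, against 0.07 and 0.14 over all genes.

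Downstream, 1 of 19 tested genes for enzymes of oxaloacetate and malate was called, in shoots, a share of 5.26% that is near the 5.09% of all genes. Plastid NAD-dependent malate dehydrogenase (AT3G47520) rose in shoots from 54.6 to 101 FPKM (log2 0.88, SE 0.23, adjusted p = 0.0489), and no gene of the list passed the test in roots. Among 7 tested transporters of malate and citrate, ALMT1, the malate channel of the root plasma membrane, rose in roots from 3.87 to 50.3 FPKM (log2 3.24, SE 0.45, adjusted p = 0.00656). The tonoplast dicarboxylate transporter tDT fell in roots from 51.4 to 16.0 FPKM (log2 -1.70, SE 0.35, adjusted p = 0.0332), in a comparison where 1.98% of all genes were called lower. No transporter of the list passed the test in shoots. PEPRK1 and PEPRK2, kinases related to PPCK, did not pass it in either organ, with log2 differences from -0.64 to 0.36. The call of ALMT1 was lost in 2 of 17 alternatives (roots fitted alone, with and without a block), and the other 10 calls of these pathway genes in 6 to 12 alternatives each.

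Each member had close companions over the 8 poly(A)+ libraries, as measured by Pearson's r of log2 levels over 19742 other genes. The r describes libraries that share organ and treatment and carries no test, and the responses of genes picked by it are no independent support. Nearest to PPCK1 were AT3G44510 (r = 0.990), BAM3 (0.988), a receptor kinase, and AT4G02940 (0.987). AT3G44510 rose in shoots from 0.502 to 29.6 FPKM (log2 4.36, adjusted p = 0.000299). All 3 were called higher in shoots, and in roots AT3G44510 and AT4G02940 were and BAM3 was not (adjusted p = 0.246). Nearest to PPCK2 were AT1G67920 (r = 0.997), the glucosyltransferase UGT73B2 (0.996) and the phosphoglycerate dehydrogenase PGDH (0.995). These 3 rose in shoots by 2.29, 3.05 and 2.95, and like PPCK2 were not called in roots.

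Nearest to PPC1 were AT4G22214 (r = 0.993), CYP79B2 (0.992), an enzyme that acts on tryptophan, and AT4G36430 (0.991). AT4G22214 and AT4G36430 rose in both organs and CYP79B2 was called in neither (adjusted p = 0.0888 and 0.0596). Nearest to PPC3 were AT4G14060 (r = 0.998), the signal peptide peptidase SPP (0.997) and AT3G25790 (0.997). AT3G25790 rose in both organs, AT4G14060 was called in shoots and not in roots (adjusted p = 0.0513), and SPP was called in neither (adjusted p = 0.222 and 0.0792). Nearest to PPC2 were AT5G43870 (r = 0.996), AT1G75900 (0.995) and the sulfate transporter SULTR2;1 (0.983). All 3 companions of PPC2 rose in roots (by 2.32, 2.21 and 3.14) and were not called in shoots (-0.86, -0.72 and -0.02). SULTR2;1 went from 5.74 to 56.6 FPKM in roots, on a P- medium to which sulfate had been added. Within the family r was 0.96 between PPCK1 and PPCK2 and 0.96 between PPC1 and PPC3, whereas PPC2 had an r of -0.65 to -0.44 with the other 4 tested genes.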

How the data were processed

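The authors aligned reads to TAIR10 with TopHat2, removed organelle reads and estimated FPKM for each transcript and library with eXpress. These deposited FPKM were the values used. The deposited fold ratio columns on the log2 scale and p-value columns of the authors (DESeq2, not adjusted) hold their own comparisons and were left out. FPKM give no depth.

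FPKM of transcripts were summed per locus. Genes averaging 1 FPKM or more across the 8 libraries of their fraction entered the test, which fitted log2(FPKM + 1) with limma 3.58.1 in R 4.3.3 (4 groups together, variance trend, two-sided p, Benjamini-Hochberg over all genes, called under 0.05). The fit was tested on simulated data. Root columns are numbered 2 and 3 in the table of all transcripts, where the labels number replicates 1 and 2, and were mapped to groups only. The values within read settings come from the table of called transcripts, whose columns name the replicates. There, every transcript above 0 had in root replicate 1 the value of column 2 and in replicate 2 that of column 3. The paper calls the replicates biological, and p-values measure the spread between these samples.

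Positions and sequences are from RefSeq TAIR10.1, read with Python 3.11.15. Coding sequences and translations were aligned end to end, and identity counts aligned positions only.

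Named genes were the 6 members in every library, the 3 genes with the highest Pearson r for each tested member, and from each pathway list up to 4 genes per organ with the smallest adjusted p under 0.05. The members and lists were chosen with earlier results of these data known. Alternatives were other pseudocounts (0.1 and 5 FPKM), other filters, rescaled libraries, the most abundant transcript, organs fitted alone, a replicate block in each organ, each library left out, the thresholds of the study, and the root marker share taken off P- shoots.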

Additional observations from a re-analysis of the deposited data

Results flagged for a closer look

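4 genes had a response to P- that differed between roots and shoots by the test of the difference itself (limma, poly(A)+, 2 libraries a group). The root response less the shoot response, on the log2 scale, was -2.36 for PPCK1 (SE 0.42, adjusted p = 0.0252), with a rise in both organs. It was -3.34 for PPCK2 (SE 0.43, adjusted p = 0.00997), which was called in shoots and not in roots. It was 1.64 for PPC2 (SE 0.31, adjusted p = 0.0283), called in roots and not in shoots, where both P- libraries lay below both P+ libraries. It was -2.22 for PFK2 (SE 0.47, adjusted p = 0.043), called in shoots and not in roots. Groups of 2 libraries are too small for a check of single outlying libraries.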

How the results depend on the processing

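Counts of called members were compared between settings, out of 5 tested genes. In P- roots, poly(A)+, 4 were called, with 0 when each organ was fitted alone and 0 to 4 when 1 library was left out. In P- shoots, poly(A)+, 4 were called, with 2 to 4 when 1 library was left out. The response differed between organs for 3, with 1 when 5 FPKM were added, 1 with the most abundant transcript in place of the sum, and 0 to 3 when 1 library was left out. In poly(A)- roots none was called, against 4 with the thresholds of the study, 1 when 5 FPKM were added and 1 when a mean of at least 5 FPKM was required. In poly(A)- shoots 1 was called, against 4 with the thresholds of the study, 2 when 0.1 FPKM was added, 0 when each organ was fitted alone and 0 to 1 when 1 library was left out. Leaving out a library or an organ also leaves fewer samples to estimate the spread. The 5 calls between P+ organs and the 4 between P- organs stayed within 1.5 times under every alternative run for them.

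The correlation of replicate differences between P+ and P-, over 2 pairs in each organ, was 0.23 in shoots and 0.17 in roots for poly(A)+ RNA, and 0.03 and 0.17 for poly(A)- RNA. No label says that a number marks a shared batch, so the numbers were not taken as pairing. With shoots fitted alone and the replicate block, 0 members were called in poly(A)- shoots (0 with shoots alone and no block, 1 with all groups fitted together), and the poly(A)+ shoot count was 4 with the block as without it. With roots fitted alone and the number of the column as block, chosen after the values were seen, 0 members were called in either fraction of roots, as with roots fitted alone without the block.

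Over single members, 519 values under an alternative kept their direction and side of the threshold, 63 lost the call, 5 gained it and 8 changed sign. With the highest root marker share taken off P- shoots (chosen after the values were seen), PPC3 in shoots changed sign to -1.74, its difference of responses to 3.74, and PFK7 in shoots to -0.40. Both PPC3 values follow from the floor of that subtraction, which set its P- shoot libraries to no expression. The difference of responses of PPC3, not called, was 0.91 with the median share taken off, 0.30 with 5 FPKM added, and between -1.09 and 0.11 when 1 library was left out. That of PPC1, also not called, lay between -0.22 and 0.32 when 1 library was left out. The cause of the other changes was not tested. FPKM carry no depth, and no counting limit was computed for low levels such as those of PPC4.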
